A study of Danio rerio with 6 samples.

Results

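Zebrafish thrombocytes are the nucleated counterparts of mammalian platelets. Here 5 genes of skeletal muscle were followed through 6 RNA sequencing libraries made from sorted thrombocytes. The genes were actc1b, mylpfa, tnnt3b, pvalb2 and ckma, taken by Ensembl identifier from a table of 32520 genes, and all 5 were found. Their identifiers are ENSDARG00000099197 (actc1b), ENSDARG00000053254 (mylpfa), ENSDARG00000068457 (tnnt3b), ENSDARG00000002768 (pvalb2) and ENSDARG00000035327 (ckma). They were chosen as transcripts that a thrombocyte is not known for. Whether they came from other cells was not tested.

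The control libraries (n = 3) came from larvae with a pair of transgenes, -6.0itga2b:tagRFP and -6.0itga2b:EGFP, in which promoter sequence of the thrombocyte gene itga2b drives a red and a green fluorescent protein. In the larvae of the miR-150 libraries (n = 3) the red transgene was -6.0itga2b:miR-150-tagRFP, which also carries the microRNA miR-150, and the green one was that of the controls. All larvae were raised at 28.5 °C, were kept from pigmenting with 0.003% PTU (1-phenyl 2-thiourea) begun 24 to 30 hours after fertilization, and were dissociated at 5 days. Cells positive for both colours were sorted, so the selection rests on transgene fluorescence alone. Strain, sex and the number of larvae or cells pooled are not given in the labels, which name the replicates as biological.

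Skeletal muscle contracts when myosin filaments pull on actin filaments within the sarcomere. Calcium released into the fibre binds troponin, which shifts tropomyosin away from the sites on actin where myosin attaches, parvalbumin binds calcium as the fibre relaxes, and creatine kinase regenerates ATP from phosphocreatine. Fast fibres make up most of the trunk muscle of a zebrafish larva, and the messenger RNAs of these proteins are among the most abundant of that tissue.

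Depth ranged from 12972258 counts in control replicate 2 to 22150519 counts in miR-150 replicate 2. The thrombocyte marker itga2b, whose promoter sequence drives the sorted colours, was read in every library. Its counts were 117736, 54405 and 69358 in control replicates 1, 2 and 3. In miR-150 replicates 1, 2 and 3 they were 93433, 88655 and 17478. Of 15 identifiers on a thrombocyte list, 12 were tested. Between genotypes 0 were called (edgeR adjusted p below 0.05), where 0% of all genes tested were called. The 3 at 0 in every library were P2RY12 (ENSDARG00000069945) and both identifiers named F13A1. The list took 1.55% to 1.98% of counts in controls, 1.61% and 1.38% in miR-150 replicates 1 and 2, and 0.403% in miR-150 replicate 3. That last library therefore stood apart from the other 5 in the summed share of this list. Its members fell unequally. Per 1000000 counts of the library, itga2b had 1052 there, against 4002 to 5727 elsewhere. ITGB3 (ENSDARG00000045070) had 542, against 575 to 796 elsewhere. The second identifier named ITGB3 (ENSDARG00000056767) had 10.1, against 36.1 to 114 elsewhere.

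All 5 muscle genes were read in every library, with between 732 and 20711 counts per gene and library. A count of 0 would have allowed up to 0.231 CPM (counts per 1000000 counts of the library) in the shallowest library, 3 counts being the limit. Control replicate 3 and miR-150 replicate 1 held the highest values of actc1b, mylpfa, tnnt3b and ckma, and for pvalb2 they also came first and second as CPM of all counts. The 2 high libraries belong to different genotypes. The groups overlapped for each gene, and no genotype difference passed the test.

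Summed over the 5 genes, the share of counts was 0.0930%, 0.0781% and 0.223% in control replicates 1, 2 and 3, and 0.192%, 0.111% and 0.0976% in miR-150 replicates 1, 2 and 3. The highest share was 2.85 times the lowest. Exact Clopper-Pearson 95% intervals ran from 0.0766% to 0.0796% in the lowest library and from 0.221% to 0.225% in the highest, so the libraries differed beyond counting error, which is all these intervals cover. The group means were 0.131% ± 0.0796 (SD, n = 3) for controls and 0.133% ± 0.0511 (SD, n = 3) for miR-150. The difference of 0.0022 percentage points was far smaller than either SD.

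**Figure D1:**
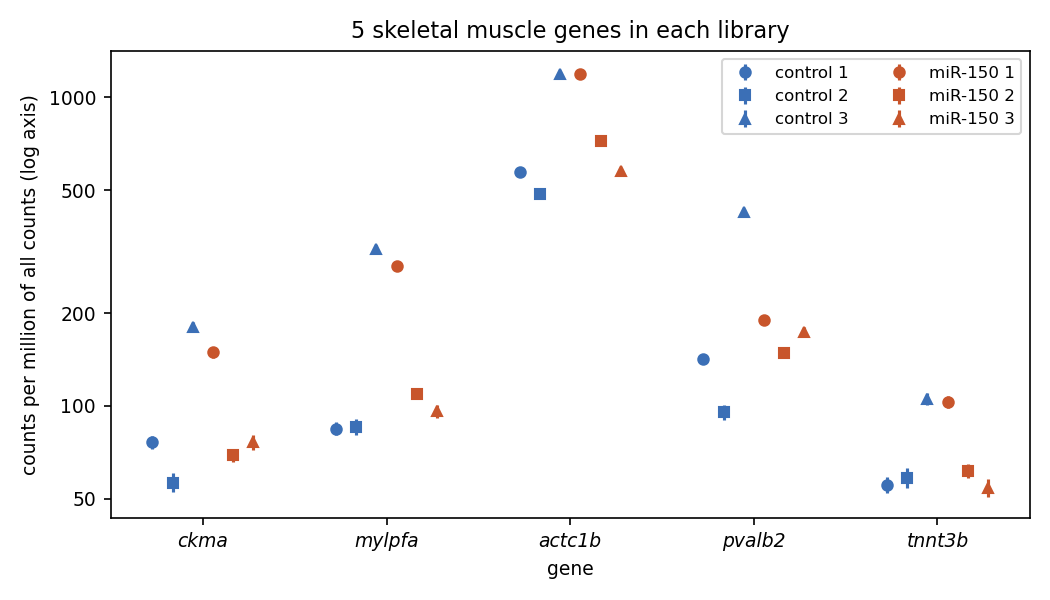
Level of each muscle gene in each library, in CPM of all counts on a log axis; bars are exact 95% counting intervals, mostly smaller than the symbols. Control replicate 3 and miR-150 replicate 1 lie above the other libraries in actc1b, mylpfa, tnnt3b and ckma; gene lengths were not corrected for, so heights are comparable within a gene only.

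Among the contractile proteins, actc1b encodes an actin of the sarcomere's thin filament. It stood at 571, 485 and 1193 CPM in control replicates 1, 2 and 3, and at 1194, 720 and 576 CPM in miR-150 replicates 1, 2 and 3. The counting intervals of control replicate 3 and miR-150 replicate 1 overlapped, as did those of miR-150 replicate 3 and control replicate 1, and every other step in the order was larger than counting error. After scaling by TMM (trimmed mean of M-values, which corrects each library for its composition), the means were 685 ± 301 CPM for controls and 870 ± 168 CPM for miR-150 (SD, n = 3 each).

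mylpfa encodes the regulatory light chain of fast myosin, the motor of the thick filament. Its levels were 84.4, 85.7 and 323 CPM in control replicates 1, 2 and 3, and 283, 109 and 96.0 CPM in miR-150 replicates 1, 2 and 3. Control replicate 3 and miR-150 replicate 1 stood well above the remaining libraries, the lower of them 2.59 times miR-150 replicate 2, and control replicates 1 and 2 could not be told apart within counting error. TMM-scaled means were 147 ± 111 CPM and 165 ± 71.9 CPM (SD, n = 3 each).

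tnnt3b encodes a fast troponin T, the subunit that ties the troponin complex to tropomyosin. It had 55.4, 58.4 and 105 CPM in control replicates 1, 2 and 3, and 103, 61.5 and 54.3 CPM in miR-150 replicates 1, 2 and 3. It split the libraries into a pair near the upper value and the other 4, within each of which neighbouring libraries overlapped in their counting intervals. It also spread least of the 5 genes: the highest library was 1.94 times the lowest. TMM-scaled means were 66.8 ± 20.1 CPM and 76.7 ± 12.1 CPM (SD, n = 3 each).

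pvalb2 encodes a parvalbumin, the calcium buffer of fast fibres, and spread most, with a highest library 4.47 times the lowest. Its levels were 142, 95.2 and 426 CPM in control replicates 1, 2 and 3, and 191, 149 and 174 CPM in miR-150 replicates 1, 2 and 3. Both extremes were controls, and the miR-150 libraries lay between them. Under TMM scaling miR-150 replicate 1 fell behind miR-150 replicates 3 and 2 in the order of pvalb2. The scaled means were 200 ± 145 CPM for controls and 186 ± 25.1 CPM for miR-150 (SD, n = 3 each).

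ckma encodes a muscle creatine kinase. It stood at 76.1, 56.4 and 181 CPM in control replicates 1, 2 and 3, and at 149, 69.2 and 76.2 CPM in miR-150 replicates 1, 2 and 3. Control replicate 3 and miR-150 replicate 1 were again the highest and control replicate 2 the lowest. miR-150 replicate 3 did not differ from control replicate 1, nor control replicate 1 from miR-150 replicate 2, beyond counting error. TMM-scaled means were 95.1 ± 53.4 CPM and 102 ± 25.3 CPM (SD, n = 3 each).

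The genotype comparison asked whether thrombocyte libraries with miR-150 held other levels of these transcripts than libraries without it. By edgeR's quasi-likelihood test, with Benjamini-Hochberg adjustment over 15722 genes and a threshold of 0.05, 0 of the 5 genes were called, where 0% of all genes tested were called. Without adjustment 0 of the 5 passed that threshold, against 855 genes or 5.44% of those tested. The DESeq2 Wald test also called 0 of them, against 254 genes or 1.68% of those given an adjusted p-value. Groups did not overlap for 0 of the 5 and for 13.6% of all genes tested. The median log2 fold change, miR-150 minus control, was 0.17 over the 5 genes and 0.044 over all genes tested.

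The log2 fold change of actc1b was 0.34 ± 0.47 (SE; 95% interval -0.77 to 1.46; edgeR adjusted p = 0.988), that of tnnt3b 0.20 ± 0.36 (-0.66 to 1.06; 0.991) and that of mylpfa 0.17 ± 0.60 (-1.23 to 1.58; 0.995). For ckma it was 0.10 ± 0.48 (-1.03 to 1.24; 0.995), and for pvalb2 -0.10 ± 0.55 (-1.41 to 1.2; 0.995). The intervals do not show equal levels. They reach from a ratio of 0.378 at the low end, in pvalb2, to a ratio of 2.98 at the high end, in mylpfa. The sign was not stable except in actc1b. With no scaling factor the values of mylpfa, ckma and tnnt3b were below 0, and without control replicate 3 that of pvalb2 was 0.58. Without that library the value of mylpfa kept its sign but rose to 0.94.

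**Figure D2:**
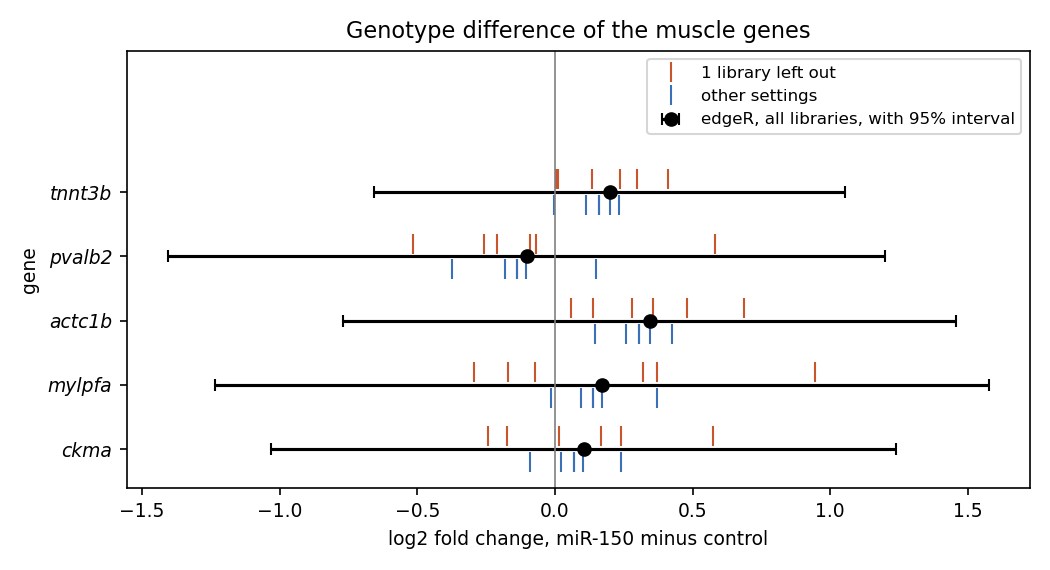
Log2 fold change of each muscle gene, miR-150 minus control, from edgeR with its 95% interval (black), with 1 library left out (upper ticks) and under other scalings, filters, tests or the replicate block (lower ticks). Every interval includes 0, and the ticks of ckma, mylpfa, pvalb2 and tnnt3b lie on both sides of 0, those of tnnt3b reaching only -0.0028.

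The 5 genes were also compared for the proportions they kept within a library, with actc1b, the gene with the most counts, as the unit. Gene length cancels when such a ratio is compared between libraries. tnnt3b kept the steadiest proportion, at 0.0854 to 0.120 counts per count of actc1b, and its highest ratio was 1.41 times its lowest. For ckma the ratio ran from 0.0961 in miR-150 replicate 2 to 0.152 in control replicate 3, a range of 1.58 times. mylpfa ran from 0.148 in control replicate 1 to 0.271 in control replicate 3, a range of 1.83 times.

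pvalb2 varied most against actc1b. It had 0.249, 0.196 and 0.357 counts per count of actc1b in control replicates 1, 2 and 3, and 0.160, 0.207 and 0.302 in miR-150 replicates 1, 2 and 3. In the 2 libraries richest in muscle reads its proportion was thus the highest and the lowest of the series. The exact 95% intervals, 0.347 to 0.367 and 0.154 to 0.166, lay far apart. The libraries therefore did not hold the muscle genes in 1 fixed proportion, to a degree beyond counting error.

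**Figure D3:**
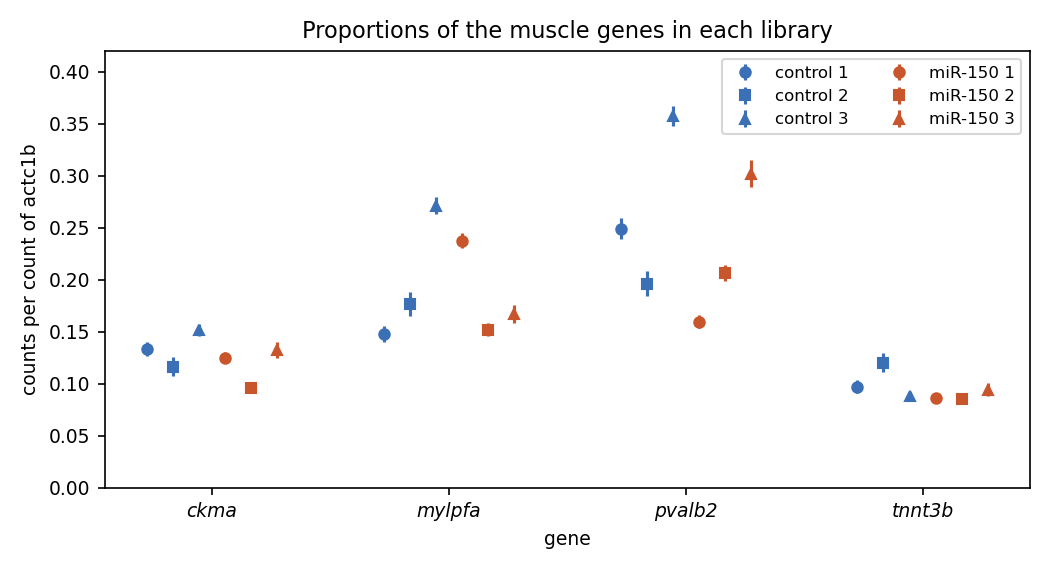
Counts of 4 muscle genes per count of actc1b in each library, with exact 95% counting intervals. tnnt3b stays between 0.0854 and 0.120, whereas pvalb2 is highest in control replicate 3 and lowest in miR-150 replicate 1.

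Measured as the SD of log2 CPM over the 6 libraries, tnnt3b (0.32), actc1b (0.49) and ckma (0.58) varied less than the median of the 3002 genes with a mean of at least 50 CPM (0.62), and pvalb2 (0.69) and mylpfa (0.76) varied more. The median over all 15722 genes tested, most of them at lower levels, was 1.13.

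Other genes of fast muscle were read from a list of 66 symbols. Of these, 63 were matched to 67 identifiers, many of them only through the symbol of the human gene, which zebrafish copies can share. Of the 67, 33 had 5 counts or more in every library and 53 were tested. By edgeR 0 were called higher and 0 lower in miR-150 libraries, where 0% of all genes tested were called. DESeq2 called 0, against 1.68% of all genes given an adjusted p-value. By edgeR 1 of the 53 had an unadjusted p-value below 0.05, against 5.44% of all genes tested. The median log2 fold change of the 53 was 0.41, against 0.044 over all genes tested. The list's share of counts was 0.139%, 0.123% and 0.262% in control replicates 1, 2 and 3, and 0.269%, 0.123% and 0.165% in miR-150 replicates 1, 2 and 3, so it too was highest in control replicate 3 and miR-150 replicate 1.

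Contractile genes of this list, 26 identifiers grouped by role after their values had been seen, took 0.103% of counts in control replicate 3 and 0.108% in miR-150 replicate 1, against 0.0425% to 0.0571% in the other 4 libraries. Calcium handling genes, 17 identifiers, took 0.0682% and 0.0489% in those 2 libraries and 0.0212% to 0.0328% elsewhere. Energy genes, 10 identifiers, took 0.0792% and 0.102%, against 0.0335% to 0.0664%. These 3 groups were highest in the same 2 libraries. The remaining 14 identifiers of the list were not: they took 0.0114% in both miR-150 replicate 3 and control replicate 3, 0.0098% for miR-150 replicate 1 and 0.0035% to 0.0068% elsewhere. GAPDH and ALDOA, which make up much of the energy group, are glycolytic enzymes of other tissues too.

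Relatives of the 5 genes ranged from somewhat more counts to far fewer. pvalb1, another parvalbumin, had 3219, 1322 and 7363 counts in control replicates 1, 2 and 3, and 3763, 3667 and 3100 counts across miR-150 replicates 1, 2 and 3. That is 0.998 to 1.14 counts per count of pvalb2 in every library. ckmb, the second muscle creatine kinase, varied more against its relative, from 0.993 counts per count of ckma in miR-150 replicate 2 to 1.60 in miR-150 replicate 3. pvalb3, a further parvalbumin, had only 0 to 82 counts per library. Reads shared between such copies could have been split or dropped in counting, which was not checked.

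tpma, the tropomyosin of fast muscle, followed actc1b closely. Its counts were 2230, 1080 and 3543 in control replicates 1, 2 and 3, and 3260, 2949 and 1952 in miR-150 replicates 1, 2 and 3, or 0.157 to 0.204 per count of actc1b. The myosin heavy chain gene myhz1.1, chosen after its values were seen, did not keep such a proportion. It had 38, 76 and 1769 counts in control replicates 1, 2 and 3, and 1326, 651 and 380 in miR-150 replicates 1, 2 and 3, so that its ratio to actc1b ranged 26.5-fold, from 0.0032 in control replicate 1 to 0.0856 in control replicate 3. Both identifiers named TTN, after titin, the giant spring protein of the sarcomere, were likewise lowest in control replicates 1 and 2, with 16 to 61 counts there and 127 to 866 elsewhere.

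In 4 of the 53 tested fast muscle genes, 7.55% against 13.6% of all genes, the groups did not overlap in TMM-scaled CPM, and miR-150 libraries were the higher group each time; as CPM of all counts this held for 1 of the 4, ACTA1. These were ACTA1 (ENSDARG00000055618), actn3a, ldb3b and RYR1 (ENSDARG00000023797). ACTA1, a skeletal actin, stood at 34.1, 27.0 and 21.0 TMM-scaled CPM in control replicates 1, 2 and 3 and at 62.1, 45.8 and 72.3 in miR-150 replicates 1, 2 and 3. Its log2 fold change was 1.13 ± 0.39 (SE), and it did not pass the test (edgeR unadjusted p = 0.0213, adjusted p = 0.807). The second identifier named ACTA1 (ENSDARG00000036371) overlapped between the groups, with 8.69 to 36.3 TMM-scaled CPM in controls and 8.89 to 18.9 in miR-150 libraries.

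Slow muscle genes, summed as a list, had a different order of libraries. Their share of counts was 0.221%, 0.200% and 0.168% in control replicates 1, 2 and 3, and 0.157%, 0.111% and 0.0688% across miR-150 replicates 1, 2 and 3, so every miR-150 library was below every control. Of 14 identifiers 7 were tested and 0 called by edgeR, where 0% of all genes tested were called. Between 87.0% and 98.5% of the list's counts in a library came from tpm3 and from a gene named TNNI1 (ENSDARG00000052708), after slow troponin I. The first, tpm3, is a tropomyosin that cells outside muscle also make. Without these genes the list had 664, 1317 and 1663 counts in control replicates 1, 2 and 3. In miR-150 replicates 1, 2 and 3 it then had 3208, 950 and 1486. The groups overlapped in those counts, with miR-150 replicate 1 the highest, so the order above came from tpm3 and TNNI1. Groups did not overlap for 1 of the 7, TNNI1, against 13.6% of all genes tested. It had 395 to 806 TMM-scaled CPM in controls and 263 to 354 in miR-150 libraries. Its log2 fold change was -0.95 ± 0.42 (SE), which did not pass the test (edgeR unadjusted p = 0.0561, adjusted p = 0.930). smyhc1, the myosin heavy chain that defines slow fibres, had 0 counts in each control, 196 in miR-150 replicate 1, 5 in replicate 2 and 0 in replicate 3. Slow fibre myosin was thus at or near 0 outside 1 library.

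Regulators of muscle formation were sparse. MYF5 was at 0 in all 6 libraries. MYOD1, a master regulator of muscle fate, had 31, 19 and 0 counts in control replicates 1, 2 and 3, and 72, 0 and 0 counts across miR-150 replicates 1, 2 and 3, so it was at 0 in control replicate 3, rich in muscle reads, and present in the controls poor in them. PAX7 (ENSDARG00000070818), of muscle stem cells among others, had 52, 30 and 108 counts in controls and 54, 0 and 3 in miR-150. MYOG, myogenin, had 18 counts in control replicate 3, 7 in miR-150 replicate 1 and 0 elsewhere. mymx and MYMK, which fuse myoblasts into fibres, had 44 and 16 counts in miR-150 replicate 1 and 0 in the other 5 libraries. MEF2A, MEF2D and MEF2C took most of this list's counts, and these factors are not limited to muscle. Of the list's 16 identifiers 8 were tested and 0 called by edgeR, where 0% of all genes tested were called. The groups did not overlap for 1 of the 8, MEF2D, against 13.6% of all genes tested. MEF2D was lower in miR-150 libraries in TMM-scaled CPM.

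By the root mean square difference of centred log2 CPM over the 6 libraries, the 5 genes most like the mean profile of the muscle genes were LY75 (0.12), SUCLG2 (0.16), GNMT (0.17), YME1L1 (0.18) and DHX36 (0.19). LY75 had 494, 250 and 1063 counts in control replicates 1, 2 and 3, and 817, 578 and 517 in miR-150 replicates 1, 2 and 3. None of the 5 is on the muscle lists. Among the 200 most similar of 13330 genes with 100 counts or more in some library, 8 or 4.0% were on the fast or slow list, which held 0.420% of those genes. These 8 were tpma, TNNC2, both identifiers named MYL1, pvalb1, ckmb, TNNI2 (ENSDARG00000029069) and atp2a1l, and they were 14.3% of the 56 listed muscle genes among the candidates. Genes outside the muscle lists could thus lie close to this profile over 6 libraries. Of the 13330 genes, 46 lay nearer to the mean profile than pvalb2 did, 29 nearer than mylpfa and 14 nearer than tnnt3b. For actc1b and ckma these numbers were 1 and 0. Each of the 5 muscle genes is itself part of that mean.

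Markers of other tissues, on epidermal, liver, neural and myeloid lists, moved with the muscle genes in part. Of 13 epidermal identifiers, all tested, 12 had 5 counts or more in every library, and the exception, TP63, was at 0 in miR-150 replicate 3. The epidermal share of counts was 0.0769%, 1.44% and 2.24% in control replicates 1, 2 and 3, and 1.15%, 0.741% and 0.364% in miR-150 replicates 1, 2 and 3. It was highest in control replicate 3, like the muscle genes, but second highest in control replicate 2, where the muscle genes were lowest. Of 11 liver identifiers 3 had 5 counts or more in every library, and the list took 0.516% of counts in control replicate 3, 0.0045% and 0.0091% in the other controls and 0.0053% to 0.0123% in miR-150 libraries. Liver fga, fibrinogen alpha, was at 0 in control replicate 2, and FGB, fibrinogen beta, was at 0 there and in miR-150 replicate 1. miR-150 replicate 1 thus held high muscle shares without a high liver share. The neural list had its highest share, 0.0487%, in control replicate 2, where the muscle genes were lowest. Its share was 0.0404% in both control replicate 3 and miR-150 replicate 1. The myeloid list was highest in control replicate 3 (0.0342%), closely followed by control replicate 2 (0.0339%). Most of its counts there came from ptprc, with 3885 of 5921 in control replicate 3 and 3206 of 4399 in control replicate 2. The part of these tissues' RNA in the muscle result was not tested.

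**Figure D4:**
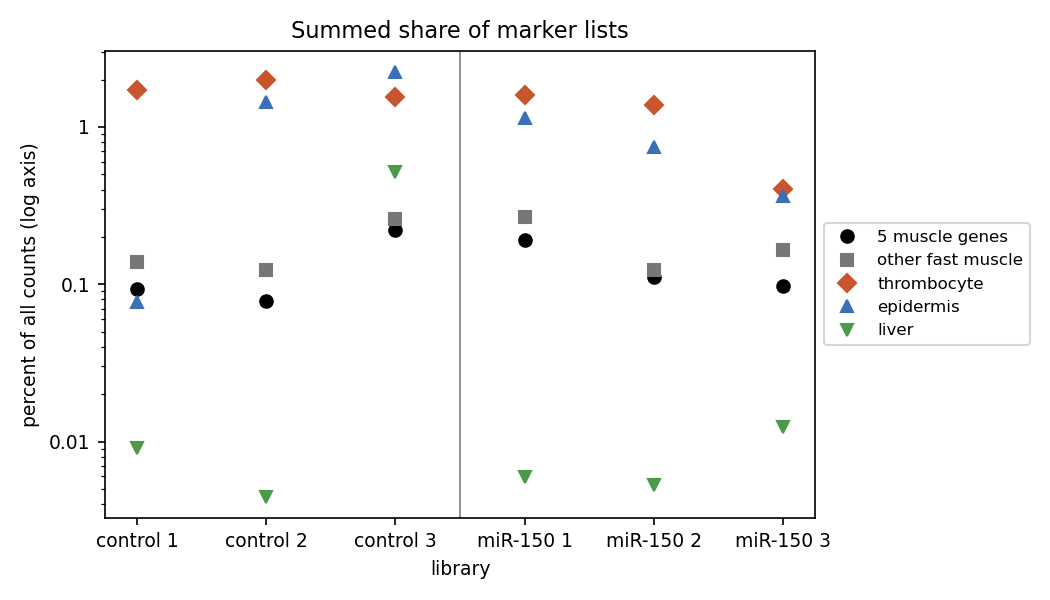
Share of all counts, on a log axis, taken by the 5 muscle genes and by lists of other fast muscle, thrombocyte, epidermal and liver genes in each library. Muscle shares lie between 0.0781% and 0.269%; liver stands out in control replicate 3 at 0.516%, and thrombocyte genes are lowest in miR-150 replicate 3 at 0.403%.

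Set against the thrombocyte's own marker, the order of libraries differed from that in CPM. The 5 muscle genes had 16.2, 18.6 and 55.7 counts per 100 counts of itga2b in control replicates 1, 2 and 3, and 35.7, 27.7 and 92.8 in miR-150 replicates 1, 2 and 3. miR-150 replicate 3, with a muscle share of 0.0976% but few thrombocyte counts, was now the highest. Against all 15 thrombocyte identifiers the range was 3.94 to 24.2 counts per 100, with control replicate 2 lowest and miR-150 replicate 3 again highest. The order of miR-150 replicate 3 and control replicate 3 held against most tested thrombocyte genes, but not against all. ITGB3 (ENSDARG00000045070) had 9000 counts in miR-150 replicate 3 and 13802 in control replicate 3, and gp9 had 1265 and 1923. The muscle genes had 16215 and 38602 counts there, so against either gene control replicate 3 was the higher. The same held against GP1BB, with 7270 and 14210 counts. Against every other tested gene of the list miR-150 replicate 3 stayed the higher, mpl with 2578 and 12407 counts among them. In TMM-scaled CPM, this ITGB3 identifier stood at 668 in miR-150 replicate 3, within its range of 625 to 855 elsewhere. The second one, ENSDARG00000056767, stood at 12.4 there, below its range of 39.1 to 99.8 elsewhere. In RNA pooled from many cells, fewer cells of a type and less RNA per cell cannot be told apart.

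By log2 CPM with a prior count of 2, 112 genes were raised 8-fold or more in both miR-150 replicates 2 and 3. The comparison was with the highest of the other 4 libraries. These genes were 0.712% of the genes tested and included 0 of the 5 muscle genes and 0 genes of every other list used here. On an erythroid list, hbae3 came close to that limit. It had 41.4 and 221 TMM-scaled CPM in miR-150 replicates 2 and 3, against 5.15 in miR-150 replicate 1, the next highest. The DESeq2 Wald test called hbae3 (adjusted p = 0.0020), and edgeR did not (adjusted p = 0.758). Of 11 erythroid identifiers 7 were tested. DESeq2 called 1 of them, against 1.68% of genes given an adjusted p-value. By edgeR 0 were called, where 0% of all genes tested were called. Groups did not overlap for 1 of the 7, hbae3, against 13.6% of all genes tested. SLC4A1 (ENSDARG00000012881) and gata1a, with log2 fold changes of -2.55 and -0.25, were the only tested members below 0.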

How the data were processed

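RNA of sorted thrombocytes was sequenced in 6 libraries. The table the authors deposited holds raw counts of reads for each Ensembl gene, and the labels name the column of each library. Per the submitters' processing notes, STAR 2.7.10b, HTSeq 0.11.3, edgeR 1.34.1 and the GRCz11 build were used. Annotation release, strand setting and duplicate handling are not given in the sources used here.

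Symbols came from a table that paired 29201 of the 32520 identifiers. It names mylpfa MYL11 and tnnt3b TNNT3, so these 2 names follow the gene set's own definition; RefSeq lists myl11a as another name of mylpfa. Gene coordinates and sequences were not used here. No 2 libraries agreed within sampling noise.

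Counts were tested in R 4.3.3 with edgeR 4.0.16 (filterByExpr, TMM, glmQLFit and glmQLFTest, genotype as the only term, all 6 libraries). Adjustment was Benjamini-Hochberg over 15722 genes, with a threshold of 0.05. SEs and intervals derive from the F statistic. CPM is relative to all counts of a library unless called TMM-scaled, and log2 CPM used a prior count of 2. The fit was tested on simulated data. The alternatives were DESeq2 1.42.0 on the genes that edgeR tested, other scalings, no filter, each library left out, and a block for replicate number.

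The muscle genes and lists were chosen with earlier results of these data known. The text names the 5 muscle genes, the 5 genes nearest in profile and the most counted genes of some lists only. Others were chosen after their values were seen. Sampling intervals cover counting error only.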

Additional observations from a re-analysis of the deposited data

How the results depend on the processing

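No alternative called any of the 5 muscle genes; the smallest adjusted p-value among 60 gene and setting combinations was 0.924, and 10 of the 60 changed sign. The number of genes called over the whole table was 0 in edgeR under every alternative, each library left out included (0 to 0), and 254 in the DESeq2 Wald test. With no scaling factor the log2 fold change was -0.091 in ckma, -0.016 in mylpfa and -0.0028 in tnnt3b. With the replicate number as a block, that of pvalb2 was 0.15, and the block changed no call. The labels do not say that equal numbers mark shared material, and libraries of the same number deviated from their groups with correlations of -0.19, -0.10 and -0.038. When 1 library was left out, values ran from -0.24 to 0.57 in ckma, -0.29 to 0.94 in mylpfa, 0.060 to 0.69 in actc1b, -0.51 to 0.58 in pvalb2 and 0.0023 to 0.41 in tnnt3b. The sign changes came without control replicate 1 (mylpfa -0.074), without control replicate 2 (ckma -0.24, mylpfa -0.17), without control replicate 3 (pvalb2 0.58) and without miR-150 replicate 1 (ckma -0.17, mylpfa -0.29). Their cause was not tested. The difference in summed share, 0.0022 percentage points, ran from -0.027 to 0.048 with 1 library left out and moved by less than 1 SD in each setting, among them a TMM-scaled denominator chosen after seeing the data (0.021).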

Other observations

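Heart muscle genes were set beside the skeletal ones because both tissues share sarcomere proteins. cmlc1, a cardiac myosin light chain, had 227, 91 and 145 counts in control replicates 1, 2 and 3, and 146, 192 and 1108 in miR-150 replicates 1, 2 and 3. MYL7, a regulatory myosin light chain of the heart, had 39, 0 and 7 counts in controls and 179, 0 and 544 in miR-150 libraries. Both were highest in miR-150 replicate 3, where the 5 skeletal muscle genes took 0.0976% of counts, against 0.223% in control replicate 3. actc1a, the sister gene of actc1b, had 118, 132 and 116 counts in controls and 433, 35 and 327 in miR-150 libraries. Of 12 cardiac identifiers 6 were tested. By edgeR 0 were called, where 0% of all genes tested were called. DESeq2 called 0, against 1.68% of genes given an adjusted p-value. By edgeR 0 had an unadjusted p-value below 0.05, against 5.44% of all genes tested. The list includes TNNI1 (ENSDARG00000052708), which the slow muscle list also holds and which had 4766 to 15305 counts per library. TNNI1 made up most of the cardiac list's counts. The list's share was 0.0764%, 0.0702% and 0.0482% in control replicates 1, 2 and 3. In miR-150 replicates 1, 2 and 3 it was 0.0348%, 0.0276% and 0.0419%, each below every control, unlike cmlc1 and MYL7. In TMM-scaled CPM summed over the tested members the groups overlapped, with 516 in miR-150 replicate 3 and 410 in control replicate 3. Groups did not overlap for 1 of the 6, TNNI1, against 13.6% of all genes tested.

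The troponin subunits differed in how evenly they were read. TNNC2, fast troponin C, had 1262, 418 and 1732 counts in control replicates 1, 2 and 3, and 1632, 1300 and 757 in miR-150 replicates 1, 2 and 3, or 0.0664 to 0.107 per count of actc1b. The second gene named TNNT3 (ENSDARG00000030270), a relative of tnnt3b, had 140, 58 and 142 counts in controls and 152, 196 and 1 in miR-150 libraries. NEB, nebulin, the ruler of the thin filament, had 1, 71 and 251 counts in controls and 88, 66 and 2 in miR-150 libraries. These genes were chosen after their values were seen, and none passed the test.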
